A study of Mus musculus with 3 samples.

Results

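The genes of glutathione metabolism and antioxidant defence were measured in the mouse mammary epithelial line EpH4-PR against a commercial mouse reference RNA. A probe was taken where its gene name in the array design was that of a glutathione S-transferase (classes alpha, kappa, mu, omega, pi, theta and zeta, and the microsomal enzymes), a glutathione peroxidase, a peroxiredoxin, a thioredoxin or a thioredoxin reductase. Probes named Gclc, Gclm, Gss, Gsr, Nqo1, Cat, Sod1, Sod2, Sod3, Srxn1, Nfe2l2 or Keap1 were added by name. This gave 52 of the 29273 gene symbols of the array, measured by 77 of its 41174 probes. Srxn1 had no probe under its present name.

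EpH4 cells are normal mammary epithelial cells taken from a mouse in mid-pregnancy, and EpH4-PR cells are stable G418-selected transfectants that carry the A form of the progesterone receptor (PR-A). The cells were grown in DMEM with 10% FBS to about 75% confluence. By the paper's methods the growth medium of the array cells also held G418, glutamine, HEPES, penicillin and streptomycin. No other agent is named for these samples. Total RNA was labelled with Cy5 on 3 Agilent whole mouse genome arrays, and the Stratagene mouse standard RNA was labelled with Cy3 on each, with no dye swap. Nothing states that the 3 arrays came from separate cultures, so that p-values measure the spread between arrays, which may be technical. Arrays of the empty-vector line were not analysed here, and every ratio below therefore compares EpH4-PR RNA with the reference RNA and does not measure an effect of PR.

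Glutathione is a tripeptide that cells make from glutamate, cysteine and glycine in a pair of steps, the first run by glutamate-cysteine ligase (Gclc and Gclm) and the second by glutathione synthetase (Gss). Glutathione S-transferases join it to reactive compounds, glutathione peroxidases spend it to reduce peroxides, and glutathione reductase (Gsr) returns the oxidised form with NADPH. Thioredoxins, thioredoxin reductases and peroxiredoxins form a parallel peroxide-reducing system. The transcription factor Nrf2 (Nfe2l2), held in check by Keap1, activates many of these genes through the antioxidant response element.

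The sequences of 6 promoters are given for the 4 genes with the lowest log2 ratios (Gstm2, Gsta3, Gstm1 and Mgst2) and for Txn1 and Prdx1, which lay on opposite sides of 0. Each is the 250 bases before the annotated start in RefSeq (GRCm38.p6), read 5′ to 3′ on the strand of the gene. Capitals mark the core of the antioxidant response element, TGACNNNGC, or the TATA box letters TATAAA, on either strand.
Gstm2, chr3:107986421-107986670, minus strand: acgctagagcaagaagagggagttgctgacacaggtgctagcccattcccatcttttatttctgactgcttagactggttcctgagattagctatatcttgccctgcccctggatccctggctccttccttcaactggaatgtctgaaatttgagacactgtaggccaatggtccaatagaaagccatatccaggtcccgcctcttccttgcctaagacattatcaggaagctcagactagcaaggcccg
Gsta3, chr1:21240335-21240584, plus strand: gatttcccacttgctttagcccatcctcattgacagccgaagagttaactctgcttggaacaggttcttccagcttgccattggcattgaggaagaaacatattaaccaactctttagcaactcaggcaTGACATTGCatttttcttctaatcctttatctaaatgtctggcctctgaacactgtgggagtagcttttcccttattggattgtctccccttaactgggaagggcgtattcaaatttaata
Gstm1, chr3:108017974-108018223, minus strand: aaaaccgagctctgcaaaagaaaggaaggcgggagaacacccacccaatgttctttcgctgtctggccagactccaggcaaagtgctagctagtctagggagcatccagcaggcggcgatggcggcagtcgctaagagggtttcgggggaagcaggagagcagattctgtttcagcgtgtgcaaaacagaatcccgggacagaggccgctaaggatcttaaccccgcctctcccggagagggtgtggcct
Mgst2, chr3:51660929-51661178, plus strand: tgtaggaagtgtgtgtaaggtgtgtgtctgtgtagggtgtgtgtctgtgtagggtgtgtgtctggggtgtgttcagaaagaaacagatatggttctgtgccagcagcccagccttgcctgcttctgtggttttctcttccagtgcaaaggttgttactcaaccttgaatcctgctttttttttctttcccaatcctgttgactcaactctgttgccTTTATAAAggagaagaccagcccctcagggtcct
Txn1, chr4:57956412-57956661, minus strand: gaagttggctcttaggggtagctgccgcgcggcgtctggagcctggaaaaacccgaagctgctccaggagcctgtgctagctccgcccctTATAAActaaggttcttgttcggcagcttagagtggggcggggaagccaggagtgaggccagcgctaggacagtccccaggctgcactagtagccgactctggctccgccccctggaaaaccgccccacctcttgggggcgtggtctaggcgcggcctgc
Prdx1, chr4:116685349-116685598, plus strand: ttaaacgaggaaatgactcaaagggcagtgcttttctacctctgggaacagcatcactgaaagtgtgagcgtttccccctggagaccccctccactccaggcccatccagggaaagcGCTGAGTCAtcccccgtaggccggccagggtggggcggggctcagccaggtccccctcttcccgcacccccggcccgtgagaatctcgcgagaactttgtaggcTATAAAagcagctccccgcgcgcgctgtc

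The Gsta3 window held the core 121 to 113 bases before the start. The Prdx1 window held it on the opposite strand 133 to 125 bases before the start, where the reversed letters also spell the AP-1 motif TGACTCA, with TATAAA at 29 to 24 bases. In the Mgst2 window TATAAA was read on both strands, overlapping itself between 34 and 27 bases before the start, and in the Txn1 window it lay 160 to 155 bases before it. The windows of Gstm2 and Gstm1 held neither, although the second annotated start of Gstm1 had TATAAA at 30 to 25 bases. Of all 32851 promoter windows 10.2% held the core and 12.4% held TATAAA, beside 15.3% (9 of 59) of the windows of the antioxidant genes for each. The genes with the core were Gsta3, Nfe2l2, Gstm5, Gstm7, Gclm, Prdx1, Mgst1, Txnrd1 and Sod1. A match describes these letters and does not show a bound site. Of the 52 symbols, 45 had a window, and those without one here included Gsr, Prdx6, Gclc, Sod3, Gsta4 and Gstt2.

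On each array EpH4-PR RNA was well above background at 29600 to 30925 probes and the reference RNA at 32584 to 33122, with a median spot intensity of 93.8 to 113 in Cy5 and 108 to 142 in Cy3. Luminal and general epithelial markers were present, as the label of the cells states. Over all probes of the array 2.25% were called higher in EpH4-PR RNA and 3.85% lower. Of 9 luminal and general epithelial probes all were above background in both channels and 7 were called higher in EpH4-PR RNA, among them E-cadherin (Cdh1) at a log2 ratio of 4.29, although Krt19 was lower at -2.62. Of 12 basal and myoepithelial probes 1 was called higher (Krt14, 2.08) and 2 lower, both for Acta2 (-2.81 and -2.01). A brighter Acta2 probe was at 0.60, and no probe of Krt5, Krt17, Trp63 or Myh11 was called. Of 15 mesenchymal probes 8 were called lower, with log2 ratios of the list from -6.51 to -0.04. Vimentin (Vim) was at -6.51 by one probe and -0.14 by a dim one. Of 7 probes for blood cells 3 were called lower. Of 5 adipocyte probes, at -0.76 to -0.04, 0 were called, although 3 had a limma adjusted p under 0.05. Neither were any of 5 endothelial and 4 hepatocyte probes called, the hepatocyte ratios lying between -0.62 and 0.02. Only 0 of these endothelial and 1 of these hepatocyte probes were above background in both channels. The missing calls therefore do not compare the RNAs for those cell types. Under median centring in place of loess, Cdh1, Krt19 and the called Vim probe kept their sign. The mesenchymal marker Fn1 did not: its called probe turned from -1.21 to 0.13 and another from -0.50 to 0.33. Krt5 and Trp63, which were not called, also turned from below 0 to 0.41 and 0.11. The part of RNA from other cell types in the reference in the ratios of the antioxidant genes was not tested. In such RNA fewer cells that use a gene and less RNA of it per cell cannot be told apart.

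EpH4-PR RNA was well above background on all 3 arrays at 70 of the 77 antioxidant probes, and both RNAs were at 67 probes for 47 genes. None was saturated. The log2 ratio, Cy5 over Cy3 after loess normalization, was called different where its limma p, adjusted over all probes by the Benjamini-Hochberg method, was under 0.05 and it lay at least 1 from 0, a difference of 2-fold. By this rule 13 antioxidant probes for 12 genes were lower in EpH4-PR RNA than in the reference (16.9%, where 3.85% of all probes were called lower), and 0 were higher (2.25% of all probes). The highest antioxidant log2 ratio was 0.99, short of the 2-fold limit, so that 0 could be called higher whatever p was used. Among probes above background in both channels the lower calls were 13 of 67 (19.4%), beside 5.69% of the 25633 such probes of the array, of which 3.46% were called higher. By the adjusted p alone 20 antioxidant probes were above 0 (26.0%, beside 25.7% of all probes) and 33 below (42.9%, beside 24.6%), while 24 passed in neither direction. Of the 67 above background in both channels, 19 were above 0 and 31 below, where all such probes of the array had 34.2% and 28.9%. The median log2 ratio was -0.01, as it was over all probes.

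**Figure D1:**
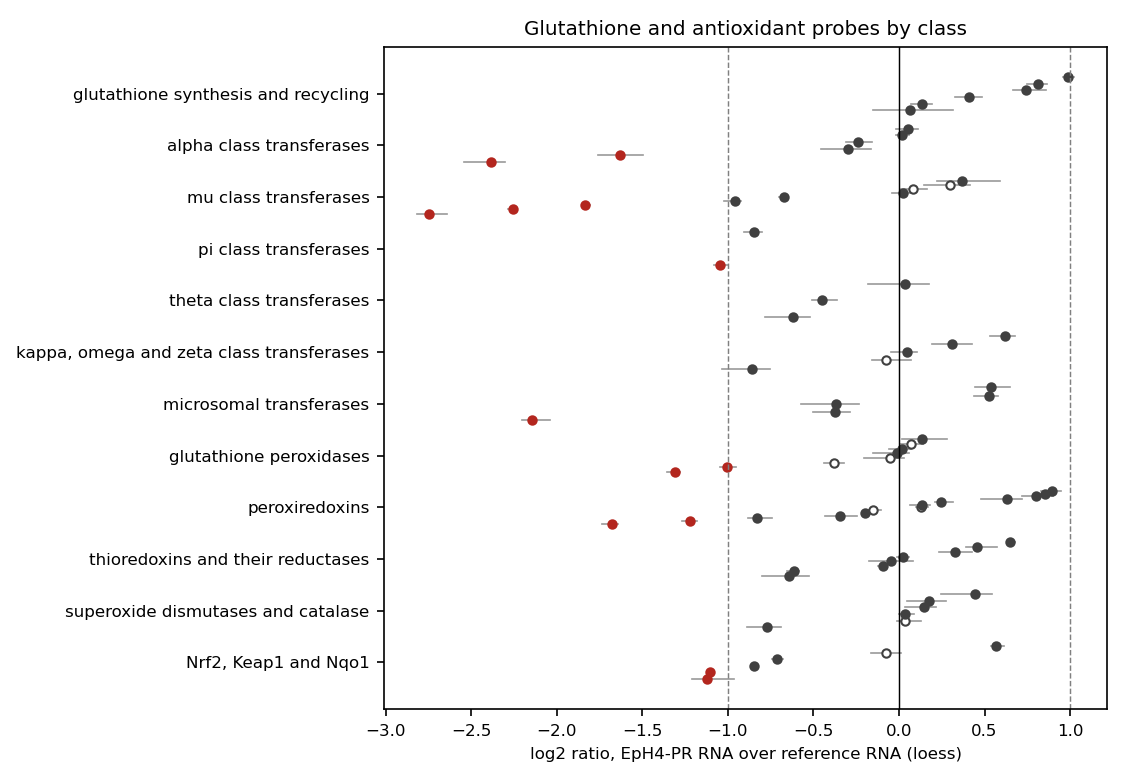
Log2 ratio, EpH4-PR RNA over the reference, for each of the 77 probes, grouped by class. Points are means and grey lines run from the lowest to the highest array; red points were called lower, open points were not above background in both channels on all arrays, and dashed lines lie at -1 and 1. All 13 called probes lie to the left, between -2.75 and -1.01, and the points of the class of synthesis and recycling all lie to the right of 0, although the line of Gclm crosses it.

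The arrays gave similar values for most of these probes, although some near 0, such as Gclm and Gstt1, differed in sign between arrays. Across the 77 probes, which are not independent replicates, Pearson's r was 0.990 for replicates 1 and 2, 0.983 for replicates 1 and 3 and 0.988 for replicates 2 and 3. The SD of a log2 ratio between arrays had a median of 0.08 and ran from 0.01 to 0.23, beside a median of 0.09 for all probes above background in both channels. A larger uncertainty came from the normalization. Before loess the Cy5 channel was brighter on bright spots, so that under median centring, which leaves that trend in place, the median of probes above background in both channels moved from 0.04 to 0.43, 20 antioxidant probes were called higher and 4 lower. Those 4 were Gstm2, both probes of Gsta3 and Mgst2. Directions that passed the adjusted p after loess and turned under median centring are named beside the gene. Bright probes above 0 after loess rose there too, so that their sizes also depended on the normalization. Among them were the brightest Prdx6 probe (2.27), Txn1 (2.17), Gsto1 (2.06) and Mgst1 (1.87 and 1.85).

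**Figure D2:**
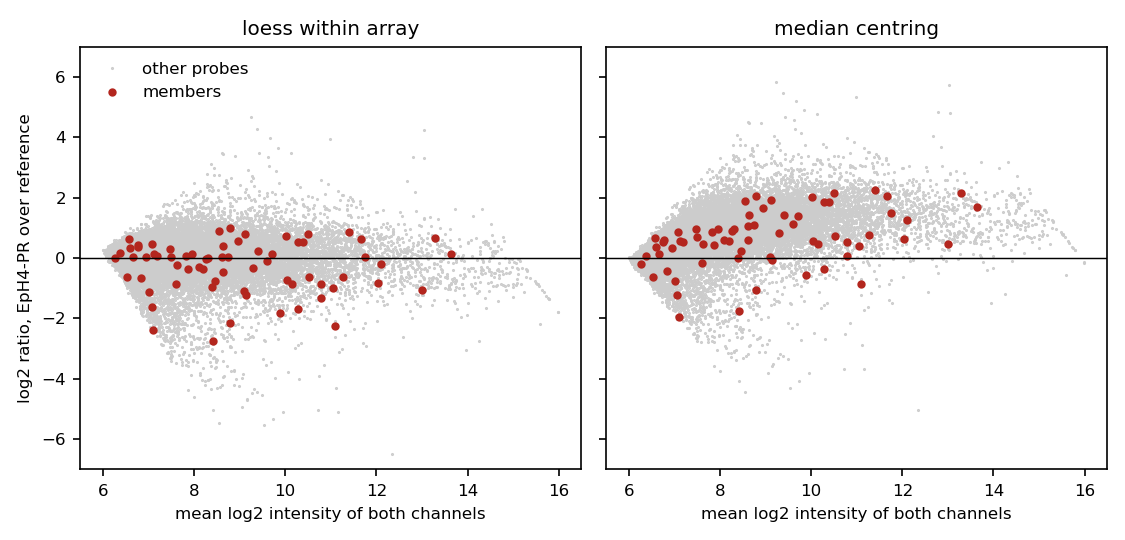
Log2 ratio (vertical axis) against mean log2 intensity of both channels (horizontal axis) under loess and under median centring, for probes above background in both channels. Red points are antioxidant probes and grey points all others; under median centring the cloud rises above 0 from left to right, and the antioxidant probes move up with it to a median of 0.53 over all 77.

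The genes that make and recycle glutathione were at or above the reference. Glutathione reductase had 3 probes, and each was higher on each array. The first read 0.96, 1.02 and 0.98 on replicates 1, 2 and 3, another 0.75, 0.83 and 0.86, and the last 0.67, 0.70 and 0.86. Their means of 0.99 ± 0.03, 0.81 ± 0.06 and 0.74 ± 0.10 (SD, n = 3 arrays) had adjusted p of 6.5e-05 to 0.00035 from limma and stayed just short of the 2-fold limit. With replicate 1 left out the first probe reached 1.003 and was called. It read 1.13 with normexp without an offset and 1.16 by the log ratio of the scanner software. Under median centring the 3 probes read 2.06, 2.16 and 2.03. The catalytic subunit of glutamate-cysteine ligase, Gclc, was at 0.41, 0.49 and 0.33 (adjusted p = 0.0021 from limma), again above 0 on each array. Its modifier subunit Gclm read -0.15, 0.03 and 0.31, the widest spread among all these probes (SD 0.23), and its mean of 0.07 turned to -0.06 without replicate 3. Glutathione synthetase was at 0.13 ± 0.06 (adjusted p = 0.068). In this class 4 of 6 probes passed the adjusted p above 0 (66.7%, beside 25.7% of all probes) and none below, with a median log2 ratio of 0.58.

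The mu class of glutathione S-transferases held the lowest ratios. Gstm2 spots read 211, 202 and 200 intensity units in EpH4-PR RNA on replicates 1, 2 and 3 and 674, 602 and 640 in the reference, which gave log2 ratios of -2.78, -2.65 and -2.82 (mean -2.75 ± 0.09, 6.72-fold lower, adjusted p = 1.4e-05 from limma). The EpH4-PR spot lay below the reference spot on each array. Gstm1 was at -2.24, -2.29 and -2.24 by its brighter probe (4.77-fold lower, adjusted p = 1.4e-05) and at -0.70, -0.67 and -0.66 by the other. Gstm3 was at -1.85, -1.85 and -1.81 (3.57-fold lower), and Gstm5 at -0.96 ± 0.06, just short of the limit. These genes stood below the reference on each array, and for Gstm5 alone the sign turned under median centring, to 0.011. Gstm4 (0.37 ± 0.20, adjusted p = 0.018) and Gstm6 (0.30 ± 0.14, adjusted p = 0.016) lay above 0, and the probes of Gstm7 at 0.02 and 0.08 did not pass. The Gstm6 spots were dim, and the reference was above background there on 2 arrays only. Its ratio was 0.10 under median centring and 1.21 by the scanner software. The 7 mu genes lie side by side on chromosome 3, in the order Gstm5, Gstm7, Gstm6, Gstm3, Gstm2, Gstm1 and Gstm4 with no other coding gene between them, so that the genes called lower were neighbours within the cluster while those on either side were not called. The mu genes are close copies of each other, and whether a probe also bound the RNA of a sister gene was not tested.

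In the alpha class the low values belonged to Gsta3. Its probes read 89.1, 88.5 and 73.0 intensity units in EpH4-PR RNA against 308, 302 and 281 in the reference, and 110, 108 and 86.7 against 255, 232 and 209. The log2 ratios were -2.30, -2.32 and -2.54 by the first (mean -2.39 ± 0.13, 5.23-fold lower, adjusted p = 2.3e-05 from limma) and -1.63, -1.50 and -1.76 by the second (3.09-fold lower). Both probes were called lower under every alternative tried. Since the EpH4-PR spots were dim, the size depended on the background correction: normexp without an offset gave -3.87 and -2.61, and the log ratio of the scanner software -4.32 and -2.81. The other alpha genes were near the reference, Gsta4 at 0.02 ± 0.04, Gsta2 at -0.24 ± 0.07, and Gsta1 at 0.05 ± 0.07 and -0.30 ± 0.15 by its 2 probes, of which those below 0 turned above it under median centring. Gsta3 lies on chromosome 1, apart from Gsta4, Gsta1 and Gsta2 on chromosome 9.

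Gstp1, the pi class enzyme of many epithelia, gave -1.07, -1.08 and -1.0005 by one probe (mean -1.05 ± 0.04, 2.07-fold lower, adjusted p = 6.0e-05 from limma) and -0.91, -0.84 and -0.80 by the other, but both turned above 0 under median centring, to 0.46 and 0.52. Its spots were brighter in EpH4-PR RNA before normalization, with 10361, 9377 and 10641 units against 6755, 6422 and 6806 in the reference. Its sign thus depended on the normalization, and by the log ratio of the scanner software both probes also lay below 0 (-0.92 and -0.91). Of the theta genes, Gstt2 was at -0.62 ± 0.14 and Gstt3 at -0.45 ± 0.08 (0.58 under median centring), and Gstt1 at 0.04 ± 0.19. Gsto1, of the omega class, was above the reference at 0.53, 0.65 and 0.68 (adjusted p = 0.00045), its spots reading 6923, 6565 and 7611 units against 1600, 1465 and 1609. Its neighbour Gsto2 was below it at -0.75, -0.79 and -1.03 (adjusted p = 0.00044), so that this pair of adjacent genes passed the test in opposite directions. A further probe of Gsto2 was not well above background in EpH4-PR RNA on any array and was on 2 in the reference, so no fold is given for it. Gstk1 was at 0.31 ± 0.12 and Gstz1 at 0.05 ± 0.08.

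The microsomal transferases, membrane proteins of a separate family, split in the same way. Mgst2, which can make leukotriene C4, was at -2.20, -2.04 and -2.20 (mean -2.15 ± 0.09, 4.43-fold lower, adjusted p = 2.0e-05 from limma), with EpH4-PR spots of 335, 329 and 334 units against 681, 615 and 664. Mgst1 was above the reference by both probes, at 0.54 ± 0.10 and 0.53 ± 0.08 (adjusted p of 0.0011 and 0.00079). Mgst3 was at -0.37 ± 0.18 and -0.38 ± 0.11, and both values turned positive under median centring (0.55 and 0.43). A further Mgst3 probe, listed under an older name and outside the rule, was at 0.09 ± 0.01 with neither channel well above background on any array.

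**Figure D3:**
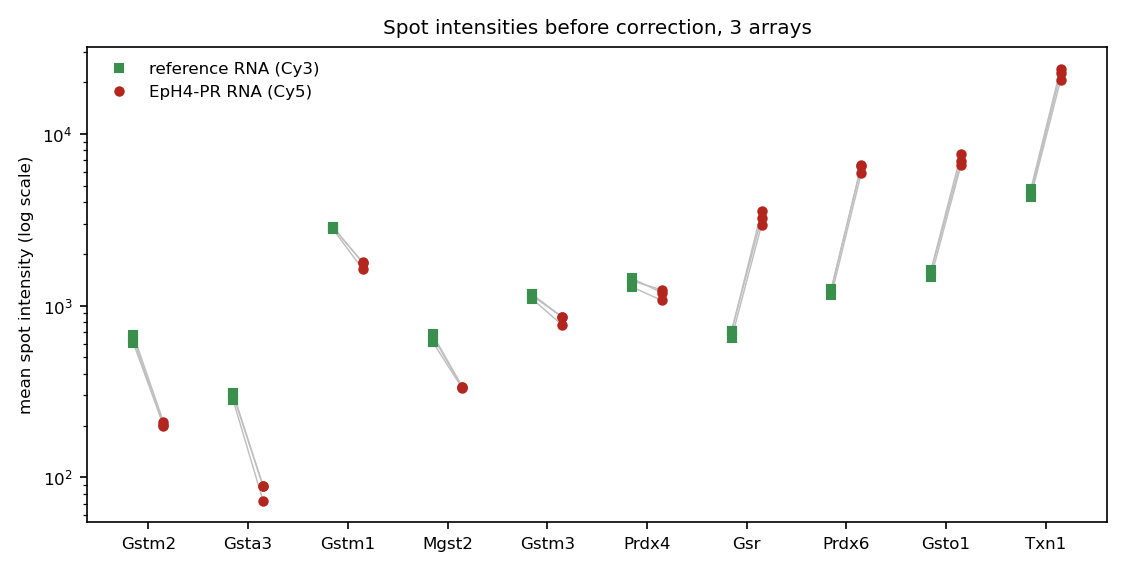
Mean spot intensity (log scale, before background correction and normalization) in the reference RNA (green squares, Cy3) and EpH4-PR RNA (red circles, Cy5) for 10 probes, with grey lines joining the channels of an array. For Gstm2, Gsta3, Gstm1, Mgst2, Gstm3 and Prdx4 the EpH4-PR spot is the dimmer on each array; for Gsr, Prdx6, Gsto1 and Txn1 it is the brighter. Heights of different probes are not comparable. Before loess bright spots were brighter in Cy5, so that spot heights do not give the log2 ratio. Sod2, not drawn, read 6429 units against 2094 in the reference on replicate 1, at a log2 ratio of 0.02.

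Among the glutathione peroxidases, which reduce hydrogen peroxide or, for Gpx4, lipid peroxides in membranes, Gpx1 and Gpx4 were called lower after loess but above 0 under median centring (0.062 and 0.39). Gpx1 read -1.30, -1.28 and -1.35 by one probe (2.48-fold lower, adjusted p = 3.4e-05 from limma) and -0.06, 0.03 and 0.07 by the other, so its probes did not give the same answer. Gpx4 read -1.04, -1.03 and -0.95 (2.01-fold lower, adjusted p = 7.0e-05), at the limit itself. Without replicate 1 or without replicate 2 it was no longer called. Gpx2, an epithelial form, was at 0.14 ± 0.13 and Gpx5 at -0.01 ± 0.12, and neither passed. Gpx3, the secreted plasma form, was not well above background in either channel on any array. Gpx6 and Gpx7 were not well above background in EpH4-PR RNA on any array, and the reference was on 2 arrays for each, so no fold is given for them. Gpx7 was an outlier spot on replicate 1 and rests on 2 arrays. The gene now named Gpx8, listed under an older name and outside the rule, was at -1.05 ± 0.04.

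The peroxiredoxins ranged more widely than any other class outside the transferases. Prdx4, the form of the endoplasmic reticulum, was at -1.64, -1.66 and -1.74 (mean -1.68 ± 0.05, 3.20-fold lower, adjusted p = 2.3e-05 from limma), with 1234, 1071 and 1187 units in EpH4-PR RNA against 1392, 1283 and 1442. Prdx5, of mitochondria and peroxisomes, was at -1.27, -1.22 and -1.18 (2.33-fold lower). Both stayed below 0 under median centring, at -0.36 and -0.08, but were not called there. The cytosolic Prdx1 was at -0.75, -0.88 and -0.86 and the mitochondrial Prdx3 at -0.34 ± 0.10, and both turned above 0 under median centring (0.63 and 0.83). The 3 probes of Prdx2 had means of -0.20 (1.26 under median centring), 0.13 and 0.24, each with an SD of 0.06 or less. The first was spotted 10 times on each array, and those spots had an SD of 0.02, 0.02 and 0.03. The probes of this gene thus lay 0.44 apart, more than the spread of any of them between arrays.

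Prdx6, a peroxiredoxin that uses glutathione in place of thioredoxin, was above the reference. Its brightest probe read 6498, 5910 and 6549 units in EpH4-PR RNA and 1253, 1149 and 1250 in the reference, and gave 0.82, 0.88 and 0.85 (adjusted p = 9.6e-05 from limma). Another gave 0.95, 0.90 and 0.83. The dimmer ones gave 0.70, 0.72 and 0.48 and, at the last, 0.13 ± 0.04. In all, 5 of 13 peroxiredoxin probes passed above 0 (38.5%, beside 25.7% of all probes) and 6 below (46.2%, beside 24.6%).

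Thioredoxin itself, Txn1, was higher on each array. Its spots read 23986, 20597 and 22598 units in EpH4-PR RNA against 4742, 4281 and 4479, and log2 ratios were 0.64, 0.63 and 0.68 (mean 0.65 ± 0.03, 1.57-fold higher, adjusted p = 0.00021 from limma). The reductase that serves it in the cytosol, Txnrd1, was at -0.53, -0.60 and -0.80 (adjusted p = 0.0010), and turned to 0.77 under median centring. Of the mitochondrial pair, Txn2 was at -0.62 ± 0.03 and -0.09 ± 0.03 by its 2 probes (0.73 and 1.13 under median centring). Txnrd2 was at 0.46 ± 0.10, 0.33 ± 0.09 and -0.04 ± 0.13 (0.87, 0.37 and 0.89 under median centring). After loess Txn2 lay below Txnrd2, though -0.09 and -0.04 were near each other, and under median centring the order was mixed. Txnrd3 was at 0.02 ± 0.03. None of the 8 probes of this class was called after loess, although Txn1 read 2.17 and Txnrd3 1.08 under median centring.

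Superoxide dismutases turn superoxide into hydrogen peroxide, and catalase breaks that down in peroxisomes. The cytosolic Sod1 read 0.19, 0.04 and 0.21 by its brightest probe (adjusted p = 0.074 from limma). Spots of that probe read 25367, 21501 and 25853 units in EpH4-PR RNA against 6741, 6632 and 6959 in the reference. Its other probes gave 0.18 ± 0.11 and 0.44 ± 0.17, the last with an adjusted p of 0.0063 from limma. The mitochondrial Sod2 was at 0.02, 0.00 and 0.09, and the extracellular Sod3 at 0.03 ± 0.08 with dim spots. Catalase was at -0.69, -0.73 and -0.89 (mean -0.77 ± 0.11, adjusted p = 0.00033), and at 0.22 under median centring. No probe of this class was called after loess. Under median centring the Sod1 probes read 1.69, 0.06 and 0.61 in the order above, Sod2 1.48 and Sod3 -0.19.

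Of the regulators, Keap1 was above the reference at 0.54, 0.61 and 0.54 (mean 0.56 ± 0.04, adjusted p = 0.00040 from limma). Nfe2l2 had 4 probes. One was called, at -1.21, -0.96 and -1.20 (2.18-fold lower, adjusted p = 0.00016), with dim EpH4-PR spots of 117, 115 and 115 units, and without replicate 1 it remained lower at -1.08. The brighter probes were at -0.85 ± 0.01 and -0.71 ± 0.03, and the last, above background in EpH4-PR RNA on 2 arrays, at -0.08 ± 0.09. Nfe2l2 was therefore below and Keap1 above the reference after loess, but under median centring the brighter Nfe2l2 probes read 0.46 and 0.58. Nqo1, a quinone reductase and a standard Nrf2 target, was at -1.08, -1.12 and -1.12 (2.15-fold lower, adjusted p = 4.7e-05) and at 0.032 under median centring. Sulfiredoxin (Srxn1), which restores overoxidised peroxiredoxins, was on the array under the name Npn3. Its 3 probes read 0.17 ± 0.11, -0.10 (2 arrays, the spot on replicate 1 being an outlier) and -1.46 ± 0.06, and only the last was called lower.

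Of the 52 genes 17 had more than 1 probe, up to 4, and for Gstm1, Gpx1 and Nfe2l2 the probes differed by more than 1 log2 unit. Among the probes taken by the naming rule, all those of a gene passed the adjusted p on the same side of 0 for Gsr, Mgst1, Gsta3, Gstm1, Gstp1 and Mgst3. For Gpx1 one probe was called lower and the other had a mean of 0.02. When the probes of a gene above background in both channels were averaged before the fit, 9 genes were called lower in place of 12, with Gpx1 at -0.65 and Nfe2l2 at -0.90.

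**Figure D4:**
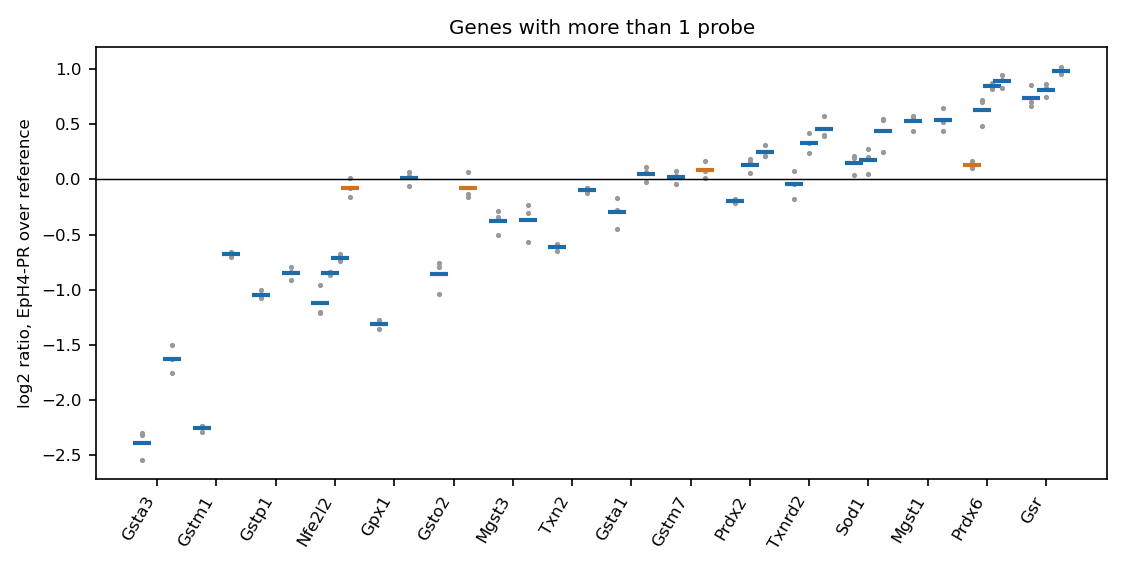
Log2 ratio, EpH4-PR RNA over the reference, for genes with more than 1 probe, ordered by their mean, with 1 of the 17 not drawn. Bars are probe means (blue, above background in both channels on all 3 arrays; orange, not) and grey points are arrays. The distance between bars of a gene is mostly wider than the scatter of the arrays around a bar, most of all for Gstm1, Gpx1 and Nfe2l2, while the 3 bars of Gsr lie between 0.74 and 0.99.

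The wider pathway was described with 92 further genes in 7 lists, of which 91 had a probe. Of 148 probes 5 were called higher (3.38%, beside 2.25% of all probes) and 19 lower (12.8%, beside 3.85%), with a median of -0.05. Among 44 probes for supply, use and transport of glutathione 3 were called each way, from S-adenosylhomocysteine hydrolase (Ahcy, 1.22 ± 0.12) to the aminopeptidase Anpep, which trims peptides at the cell surface (-1.74 ± 0.15, and -1.08 under median centring). The NADPH supply split within the pentose phosphate pathway: glucose-6-phosphate dehydrogenase (G6pdx), its first enzyme, was at -2.53, -2.37 and -2.58 (5.64-fold lower, adjusted p = 1.9e-05 from limma), whereas 6-phosphogluconate dehydrogenase (Pgd) was at 0.99, 1.07 and 1.16 (2.10-fold higher) by one probe and 0.90 by another. G6pdx and this first Pgd probe were the sole calls among the 19 probes of that list, and both kept their sign under median centring (-1.50 and 2.18).

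Among 28 probes for glutaredoxins, thioredoxin partners and methionine sulfoxide reductases 0 were called higher and 5 lower (17.9%), beside 2.25% and 3.85% of all probes. The lowest was Txnip, the inhibitor that binds reduced thioredoxin, at -2.97, -2.92 and -3.01 by one probe (7.82-fold lower, and -1.90 on the log2 scale under median centring) and -0.77 by the other. Of the partners of Nrf2, the small Maf protein Mafg was at 1.01 ± 0.11 and Rbx1, a subunit of the ligase that marks Nrf2 for breakdown, at -1.31 ± 0.04 by one probe (-0.05 under median centring), the sole calls among 16 probes. The other Mafg probe was at 0.74, and the other Rbx1 probes, with brighter spots, were at -0.29 and -0.04. Of 17 probes for other Nrf2 target genes 0 were called higher and 5 lower (29.4%). One of the 5, the ferritin heavy chain Fth1, was saturated in EpH4-PR RNA on all 3 arrays, so that its -1.14 is no measured ratio, and it read 0.50 under median centring. The lowest was carbonyl reductase Cbr3 at -2.69 ± 0.18 (-2.01 under median centring). Haem oxygenase (Hmox1) was at -0.56 ± 0.09, and at 0.67 under median centring. Among 11 probes listed for selenoprotein synthesis 3 were called lower, and these were the selenium proteins Selenop (-3.98, -4.00 and -4.01), Selenbp1 (-3.15 ± 0.10) and Selenow (-1.48 ± 0.05) and not factors that build them. Of the 11 probes 7 passed the adjusted p above 0, a larger share than the 25.7% of all probes. All 7 were for factors, such as selenophosphate synthetase (Sephs2, 0.85). Of 13 probes for oxidant sources only Cyba, a subunit of NADPH oxidase, was called, at -2.07 ± 0.21 (-1.63 under median centring).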

How the data were processed

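The authors deposited the scanner output of 3 two-colour arrays (Agilent Feature Extraction 8.1.1.1, per the file headers), with an intensity and a local background in each channel and the log10 of Cy5 over Cy3, for each of 43790 spots. The authors also deposited a table of their own fold changes and p-values, which was not used here. Mean spot intensities were corrected with limma's normexp (offset 50; limma 3.58.1, R 4.3.3) and normalized within each array by loess with control spots at weight 0. Outlier spots (150, 18 and 3 on replicates 1, 2 and 3) were left out and spots of a probe averaged, giving 41174 probes. The log2 ratio was tested against 0 with lmFit and eBayes, with Benjamini-Hochberg adjustment over all probes.

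Errors are SDs between arrays, whose number limits the precision. On simulated arrays of 41174 probes, 94.5% of 200 probes changed by 1.5 log2 units were recovered. The changed probes were drawn from those above background in both channels. There were 0 false calls among the unchanged probes, whose simulated noise was normal around 0 and small beside the limit of 1. The simulation held no dye trend, so it cannot show errors that come from the normalization. Symbols came from RefSeq accessions where they matched (67 of the 77 antioxidant probes) and otherwise from the file. Named genes were the synthesis, regulator and main enzyme genes, all called probes, genes whose probes gave opposite signs and, per pathway list, the highest and lowest called probe; others were named after their values were seen. The values of 1 peroxiredoxin gene are not reported here, although its probes are in the counts. The members and lists were chosen with earlier results of these data known. Alternatives covered background correction, normalization, dim probes, outlier spots, spot summary, the variance model, the methods' t-test and each array left out. A slide block was not fitted, since each slide was taken to hold 1 array.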

Additional observations from a re-analysis of the deposited data

How the results depend on the processing

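The 13 lower and 0 higher calls among antioxidant probes were the same under scale normalization, the filter on dim probes, outlier spots kept, median spot intensity, an intensity trend and the methods' t-test. Leaving out 1 array gave 12 to 13 lower and 0 to 1 higher calls, a median of -0.04 to -0.01, and for the pathway lists 4 to 5 higher and 19 to 20 lower. Normexp offset 0 called 3 antioxidant probes higher and 16 lower, and 13 and 31 pathway probes. The scanner software's log ratio called 4 and 16, and 15 and 29. Median centring called 20 higher and 4 lower with a median of 0.53, and 42 and 9 pathway probes, against 5 and 19 under loess. Calls that were higher made up 36.9% of calls over all probes under loess, 44.3% with offset 0, 48.2% by the scanner's ratio and 90.8% under median centring, whose construction leaves the intensity trend in place. Averaging the probes of a gene gave 9 genes called lower in place of 12, and detection on at least 2 arrays gave 72 probes in place of 70. No paired analysis was possible because there is only 1 group of samples.

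Signs turned under median centring for Cat (0.22), Gpx1 (0.062), Gpx3 (-0.11), Gpx4 (0.39), Gsta1 (0.59), Gsta2 (0.48), Gstm5 (0.011), Gstm7 (-0.14), Gstp1 (0.46 and 0.52), Gstt3 (0.58), Mgst3 (0.55 and 0.43), Nfe2l2 (0.46 and 0.58), Nqo1 (0.032), Prdx1 (0.63), Prdx2 (1.26), Prdx3 (0.83), Prdx6 (-0.12), Sod3 (-0.19), Srxn1 (0.39), Txn2 (0.73 and 1.13), Txnrd1 (0.77) and Txnrd2 (0.89). They turned by the scanner's ratio for Gpx3 (-0.12), Gpx5 (0.19), Gstt1 (-0.046) and Srxn1 (0.057), with offset 0 for Gpx1 (-0.0028) and Gsta4 (-0.0023), with median spot intensity for Gsta1 (-0.015) and with outlier spots kept for Srxn1 (0.14). With 1 array left out, probes whose sign turned ranged from -0.060 to 0.17 (Gclm), -0.012 to 0.053 (Gpx1), -0.047 to 0.060 (Gpx5), -0.089 to 0.028 (Gpx6), -0.0020 to 0.038 (Gsta4), -0.0066 to 0.052 (Gstm7), -0.035 to 0.14 (Gstt1), -0.013 to 0.057 (Sod3) and -0.11 to 0.020 (Txnrd2). The cause of these turns was not tested.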
